A study of Mus musculus with 3 samples.

Results

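Transforming growth factor beta (TGF-beta) signalling genes were examined for peaks of Tcf1, an HMG-box factor of the T cell lineage and the product of Tcf7, in mouse CD4 T cells. The 10 genes were chosen by their role in the pathway, with earlier results of these data already known. They comprise Tgfb1, Tgfbr1, Tgfbr2, Smad2, Smad3, Smad4, Smad7, Ski, Skil and Smurf2, out of 21887 protein-coding genes. A peak was assigned to a gene if its midpoint lay in the mm10 span of that gene, or if that gene was the nearest protein-coding gene within 100 kb. By this rule the 10 genes held 14 of 3402 peaks in regulatory T cells (Treg cells) and 17 of 4519 peaks in conventional CD4 T cells. Both populations were sorted from the spleen of wild-type mice aged 8 to 10 weeks that carry a Foxp3-Cre-GFP allele. Treg cells were TCRb+ CD4+ CD25+ and positive for the Foxp3 reporter, and conventional cells were TCRb+ CD4+, CD25- and negative for the reporter, although a tissue label names the conventional sample as effector cells. Chromatin was precipitated with an antiserum against Tcf1 and sequenced, with 1 library and 1 peak list for each cell type. The labels do not say whether cells of several animals were pooled, and another library, from Tcf1-deficient cells, was not analysed here.

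With no replicates, the values below describe 2 peak lists, and no test between the cell types was possible. The files hold peak positions and no read counts, so sequencing depth is unknown, and a difference in depth or in the calling threshold cannot be told apart from a difference in binding. Median peak width was 366 bp in the Treg list and 428 bp in the conventional list. Peaks do not measure expression and therefore do not check the sort. Foxp3 and Cd4 carried 0 peaks in either list, while Il2ra and Ctla4 carried 1 peak in each. Ikzf2, another Treg marker, had 0 Treg peaks and 1 conventional peak, and the T cell gene Cd3e had 1 Treg and 2 conventional peaks. Of the markers of other cell types, Cd8b1 had 1 conventional peak, and Cd8a, Ms4a1, Lyz2 and Itgam had 0 in both lists.

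TGF-beta is a secreted cytokine that binds a type II receptor, which then phosphorylates a type I receptor. The activated receptor phosphorylates Smad2 and Smad3, which join Smad4 and enter the nucleus to regulate transcription. In T cells the pathway restrains activation and favours induction of Foxp3 and differentiation of several helper lineages. Smad7, Ski, Skil and Smurf2 act as brakes at different steps.

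Promoter sequence is given for the 2 genes with a peak in their promoter window and for the type II receptor gene, which had none there. RefSeq sequence of the GRCm38.p6 assembly was on hand for 6 of the 10 genes (Tgfb1, Tgfbr1, Tgfbr2, Smad3, Ski and Smurf2), as 7 windows of 300 bases, of which 2 belong to Tgfbr1. Windows run from 250 bases before a transcription start site to 50 bases after it. The 250 bases before the start are given for Tgfb1 (chr7:25686752-25687001, plus strand), where 222 bases lay in the Treg peak and all 250 in the conventional peak. They are given for Smurf2 (chr11:106920716-106920965, minus strand), where the Treg peak lay wholly downstream of the start and the conventional peak covered 38 of these bases, and for Tgfbr2 (chr9:116175364-116175613, minus strand), which had no peak in this stretch. Capitals mark every match to the GC box GGGCGG on either strand.
Tgfb1: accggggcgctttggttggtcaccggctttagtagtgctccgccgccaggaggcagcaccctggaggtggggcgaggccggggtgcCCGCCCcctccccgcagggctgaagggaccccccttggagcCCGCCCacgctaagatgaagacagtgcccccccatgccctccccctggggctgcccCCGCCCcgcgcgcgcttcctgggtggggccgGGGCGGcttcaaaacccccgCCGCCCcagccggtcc
Smurf2: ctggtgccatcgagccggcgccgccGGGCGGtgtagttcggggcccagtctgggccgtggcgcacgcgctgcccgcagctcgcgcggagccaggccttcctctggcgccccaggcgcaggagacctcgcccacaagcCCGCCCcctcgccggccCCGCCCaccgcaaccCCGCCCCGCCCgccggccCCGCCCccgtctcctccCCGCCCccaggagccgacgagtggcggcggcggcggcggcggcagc
Tgfbr2: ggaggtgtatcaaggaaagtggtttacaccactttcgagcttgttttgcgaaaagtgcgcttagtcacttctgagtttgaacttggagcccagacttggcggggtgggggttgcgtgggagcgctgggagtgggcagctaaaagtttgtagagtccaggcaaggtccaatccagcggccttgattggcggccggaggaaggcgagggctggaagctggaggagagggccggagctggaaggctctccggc

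The Tgfb1 stretch held 5 GC boxes, all of them inside both the Treg and the conventional peak. The Smurf2 stretch held 7, of which 2 share a base, and 0 of the 7 lay inside a peak of either list. That stretch leaves out the bases after the start, where the Smurf2 peaks mainly lay. The full Smurf2 window of 300 bases held 9 GC boxes. Those after the start lay inside the conventional peak, and the last of them also lay inside the Treg peak. The Tgfbr2 stretch held 0. In the full windows GC content was 77.0% for Tgfb1, 80.3% for Smurf2 and 59.0% for Tgfbr2, against a median of 52.7% over all 32851 promoter windows. The median was 64.0% in windows touched by a Treg peak and 63.7% in those touched by a conventional peak. Windows without a peak also held GC boxes, 6 in the Ski window (85.3% GC), 2 in a Tgfbr1 window (74.7% GC) and 2 in the Smad3 window (67.7% GC), so GC boxes were found at these genes with and without a promoter peak. A GC box was present in 74.6% of the 1597 windows that a Treg peak touched, 72.4% of the 2516 windows that a conventional peak touched and 35.7% of all windows. The 2 TCF/LEF core motifs searched, CTTTGAT and CTTTGAA, which differ in their last base, matched in 0 of the 7 windows of these genes on either strand. At least 1 of them matched in 11.1% of windows touched by a Treg peak, 9.1% of those touched by a conventional peak and 8.65% of all windows. No match was found in the 7 windows for the Smad palindrome GTCTAGAC (0.213% of all windows), the AP-1 motif TGANTCA (7.81%), the Runx motif TGTGGTT (5.27%) or the ETS motif CCGGAAGT (3.89%). In windows touched by a Treg and by a conventional peak, the ETS motif matched in 11.9% and 12.8%. There the AP-1 motif matched in 3.63% and 3.82%, the Runx motif in 3.94% and 4.05%, and the Smad palindrome in 0.313% and 0.159%. A GC box alone occurred, in 5 of the 7 windows. These are matches of letters in a short window and do not identify bound sites, and peaks outside the windows were not searched.

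A Treg peak was assigned to 8 of the 10 genes, against 12.3% of all protein-coding genes. A conventional peak was assigned to 8 of the 10, against 16.3% of all. Of the 10 genes 7 carried peaks in both lists (8.17% of all genes), Smad2 had a Treg peak without a conventional peak (4.13% of all genes), and Tgfbr2 had conventional peaks without a Treg peak (8.1% of all genes). Tgfbr1 had 0 peaks in either list. The 10 genes have long stretches of genome assigned to them, with a median of 107 kb against 45.8 kb for all genes. Among the 14457 genes within their range of 21.3 to 217 kb, 13.3% had a Treg peak and 17.8% a conventional peak. That range holds most of the 21887 genes and was not matched to the median of 107 kb. The part of length in these counts was therefore not tested. Genes were not matched on expression, which the lists do not measure, and its part in these counts was not tested. Because the 10 genes were chosen with earlier results of these data known, the counts were not tested against the shares over all genes.

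**Figure D1:**
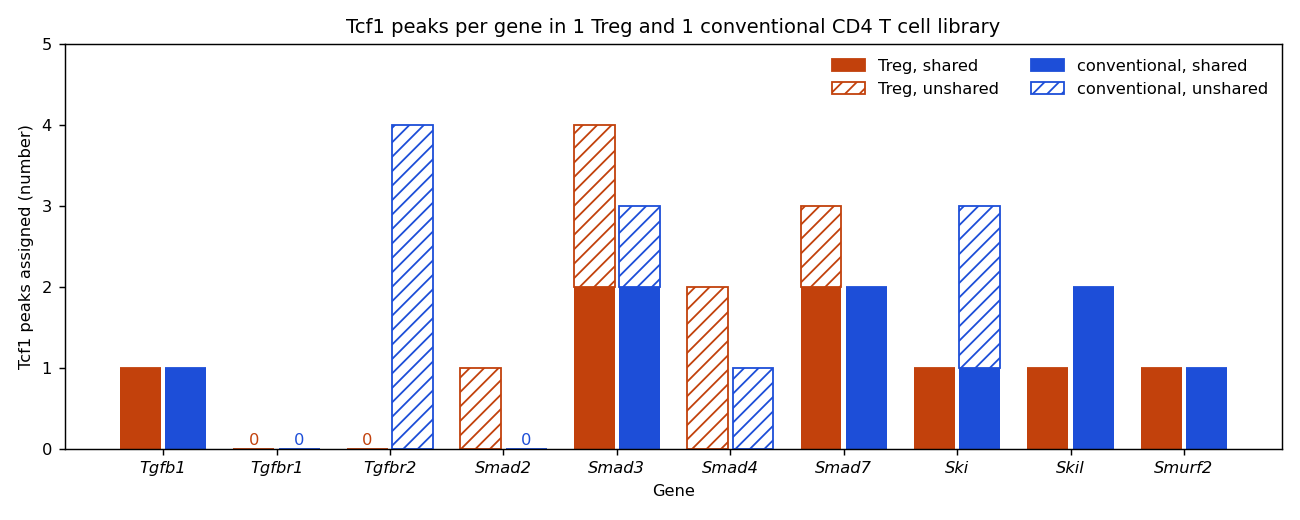
Number of Tcf1 peaks assigned to each gene (vertical axis) in the Treg list (left bar of each pair) and the conventional list (right bar). Filled parts are peaks overlapped by 1 bp or more in the other list and hatched parts are unshared peaks. Smad3 had the most Treg peaks, 4, and Tgfbr2 had 4 conventional peaks and 0 Treg peaks.

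Tgfb1 encodes the TGF-beta ligand that T cells mainly produce. Its 18076 bp span (chromosome 7, 25687002 to 25705077) carried 1 peak in each list, and both covered the transcription start site. The Treg peak (25686780 to 25687240) was 461 bp wide with its midpoint 8 bp downstream of the start, and the conventional peak (25686717 to 25687190) was 474 bp wide with its midpoint 49 bp upstream. They overlapped by 411 bp, or 89.2% of the Treg and 86.7% of the conventional width. The ligand gene thus carried a promoter peak in both lists, at nearly the same position and width.

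The 2 receptor genes were those of the 10 without a Treg peak. Tgfbr1 (chromosome 4, 47353222 to 47414926) encodes the type I receptor kinase. The nearest peak to its span was 628275 bp away in the Treg list and 59575 bp away in the conventional list, the second of these assigned to Alg2. Tgfbr2 (chromosome 9, 116087695 to 116175363) encodes the type II receptor, which binds the ligand first. It had 0 Treg peaks and 4 conventional peaks, all found in the conventional list alone.

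The 4 conventional peaks at Tgfbr2 were spread around the start of the gene and away from the start itself. The first (116145170 to 116145624, 455 bp) lay inside the gene, 29966 bp downstream of the start and at an end of the long noncoding RNA gene Gm31292. The next (116181581 to 116181864, 284 bp) lay 6359 bp upstream of the start. The others lay 39109 bp upstream (116214298 to 116214646, 349 bp) and 68235 bp upstream (116243379 to 116243817, 439 bp). Neighbouring midpoints were 36325, 32750 and 29126 bp apart, so the peaks were spaced rather than clustered. The width percentiles within the conventional list were 57.1, 2.1, 25.7 and 53.0, so the widest of them stood near the middle of that list.

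The distance limit matters for the Treg count at Tgfbr2. Farther upstream lay a peak found in both lists, 118984 bp from the span in the Treg list (116294081 to 116294614, 534 bp) and 118887 bp away in the conventional list (116293957 to 116294543, 587 bp). Tgfbr2 was the nearest protein-coding gene to it, and it was not assigned because it lay past 100 kb. The conventional peak at 68235 bp was the farthest that was assigned to any of the 10 genes. With a limit of 20 kb, 2 conventional peaks remained at Tgfbr2. Among the 3402 widest conventional peaks, a list as long as the Treg list, 3 remained.

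Of all protein-coding genes, 7 had 4 or more conventional peaks and 0 Treg peaks, out of 59 with 4 or more conventional peaks. Besides Tgfbr2 they included Tgfbr3, which encodes betaglycan, a coreceptor that presents TGF-beta to the type II receptor. Tgfbr3 had 4 conventional peaks, 3 of them inside its span and the other 26501 bp outside it. This set of 7 genes was drawn up after the values of Tgfbr2 were seen. Tgfbr2 has 193428 bp of genome assigned to it and Tgfbr3 264869 bp, against a median of 45.8 kb for all genes. The part of that length in these counts was not tested.

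**Figure D2:**
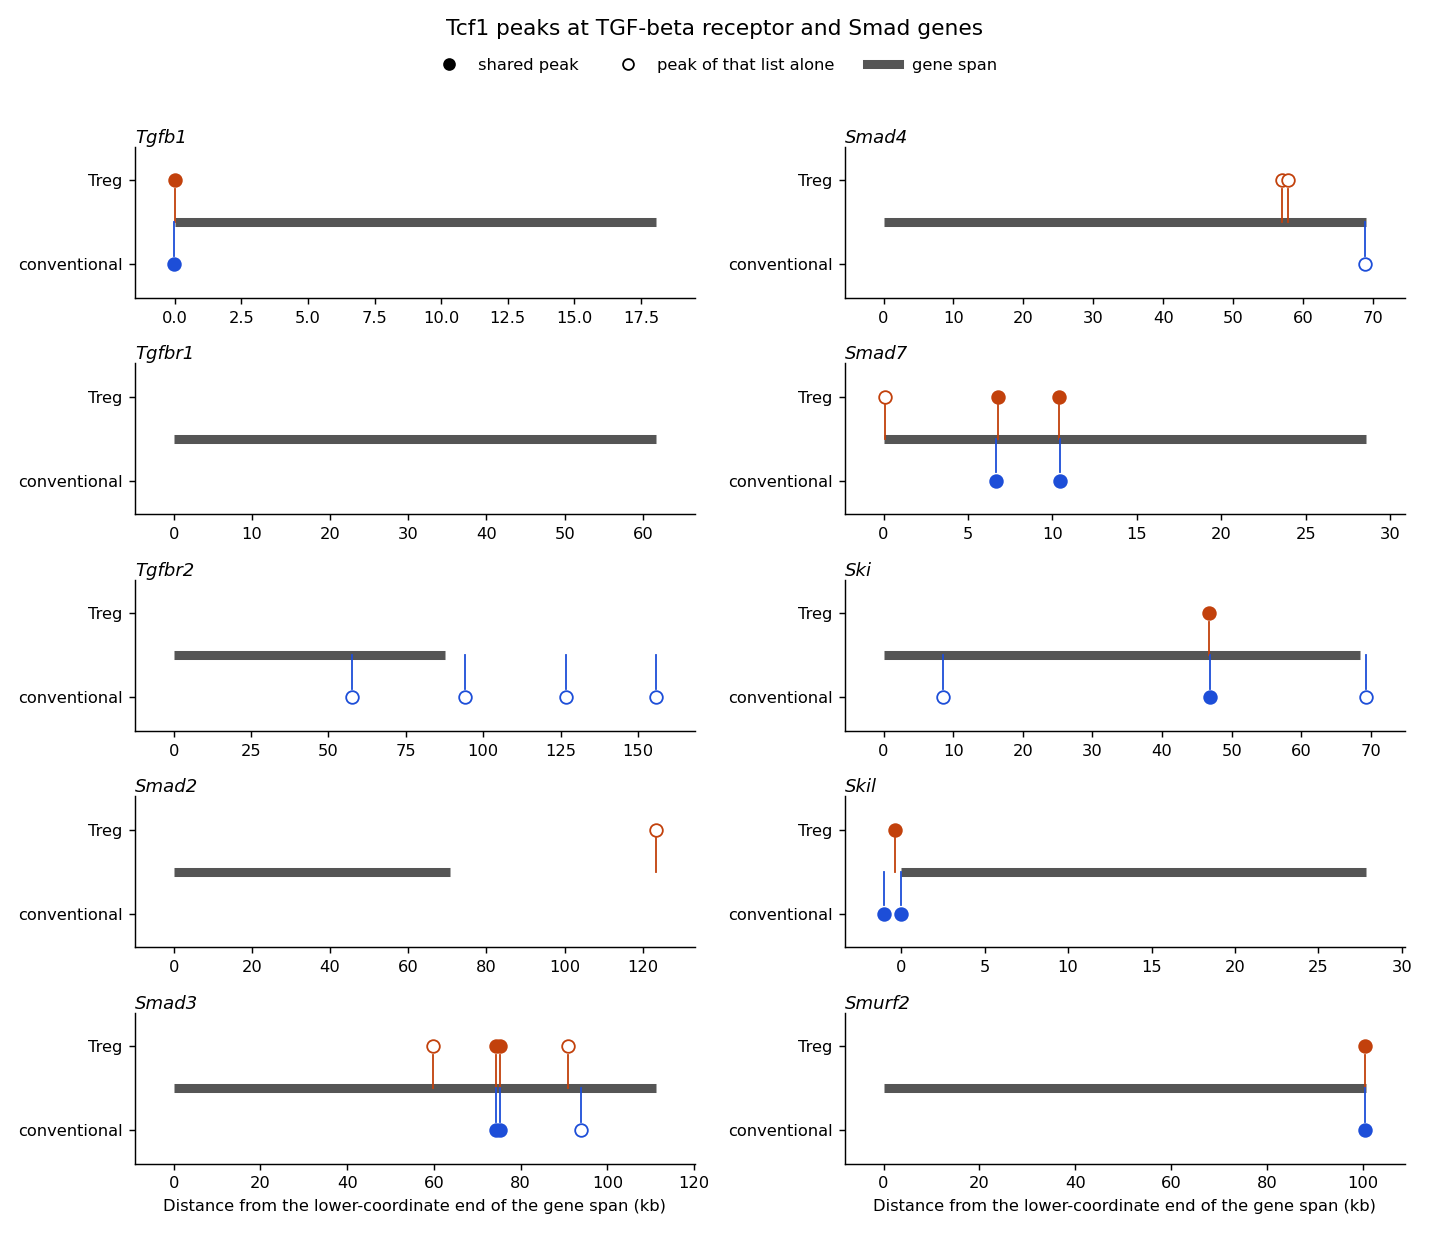
Position of each Tcf1 peak midpoint relative to the gene span (grey bar), as distance in kb from the end of the span with the lower coordinate, with Treg peaks above and conventional peaks below. Filled circles are shared peaks, open circles are peaks of that list alone, and circle size does not show peak width. Shared peaks sit at the ends of Tgfb1, Skil and Smurf2 and inside Smad3, Smad7 and Ski, while the Tgfbr2 peaks are all open.

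The receptor-regulated Smads differed from each other. Smad2 (chromosome 18, 76241090 to 76311748) had 1 Treg peak and 0 conventional peaks. That peak (76364418 to 76364659) lay 52790 bp outside the span and was 242 bp wide, close to the minimum width of 240 bp in the Treg list. It was not assigned to Smad2 with a limit of 20 kb. The nearest conventional peak was 735542 bp from the Smad2 span.

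Smad3 (chromosome 9, 63646766 to 63757994) carried 4 peaks in the Treg list and 3 in the conventional list, all inside the gene, the highest sum over both lists among the 10 genes. That rank depended on the setting: with peaks within 1000 bp merged Smad3 and Smad7 both had 3 Treg and 2 conventional peaks, and in the wider 50% of each list Smad7 had 3 Treg and 2 conventional peaks, against 2 and 2 at Smad3. At least 4 Treg peaks were found at 0.137% of all protein-coding genes, and at least 3 conventional peaks at 0.832%. Smad3 has 210 kb of genome assigned to it, against a median of 45.8 kb for all genes, and these shares were not matched for that length. Of all genes, 45 had 7 or more peaks over both lists, Smad3 included. No other gene had the same numbers of shared, Treg-only and conventional-only peaks as Smad3.

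At the centre of the Smad3 pattern was a pair of shared peaks in the gene body. In the Treg list they spanned 63720795 to 63721360 (566 bp) and 63721682 to 63722262 (581 bp), 321 bp apart. In the conventional list they spanned 63720611 to 63721392 (782 bp) and 63721770 to 63722204 (435 bp), 377 bp apart. Treg midpoints lay 36917 and 36022 bp downstream of the start, and conventional midpoints 36993 and 36007 bp. The order of widths was thus reversed between the lists, while the midpoints differed by 76 and 15 bp.

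Unshared peaks flanked that pair. The Treg-only peaks lay 51443 bp (63706393 to 63706710, 318 bp) and 20304 bp (63737546 to 63737834, 289 bp) downstream of the start, the second at an end of the long noncoding RNA gene Gm51710. The conventional-only peak (63740560 to 63740919, 360 bp) lay 17255 bp downstream, 3049 bp from the nearer Treg-only peak. All 3 were narrower than the median of their list, with width percentiles of 33.5 and 22.8 in the Treg list and 30.3 in the conventional list. No peak lay within 1 kb of either end of Smad3.

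Smad4 (chromosome 18, 73634790 to 73703791), the common partner of the receptor-regulated Smads, had peaks in both lists and shared none. The 2 Treg-only peaks (73691480 to 73692040, 561 bp, and 73692473 to 73692830, 358 bp) lay inside the gene, with midpoints 12031 and 11140 bp from the upper end of the span. The conventional-only peak (73703037 to 73704243) was centred 151 bp from that same end. At 1207 bp it was the widest peak of either list at the 10 genes and stood at width percentile 99.0 of the conventional list. The nearest Treg midpoint was 10989 bp away. The gene table gives no strand for Smad2, Smad4, Smad7 or Skil, so their peaks are placed by the ends of the span.

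Smad7 (chromosome 18, 75367365 to 75395935) encodes the inhibitory Smad that binds the activated type I receptor and recruits ubiquitin ligases. It carried 3 Treg peaks and 2 conventional peaks, all with midpoints inside the gene. The 2 shared peaks lay 6780 and 10409 bp from the lower end in the Treg list (75373874 to 75374417, 544 bp, and 75377440 to 75378109, 670 bp). In the conventional list they lay 6652 and 10427 bp from it (75373627 to 75374407, 781 bp, and 75377274 to 75378311, 1038 bp). The conventional peaks were wider at both positions.

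The other Treg peak at Smad7 (75367036 to 75367879) covered the lower end of the span. It was 844 bp wide, at width percentile 96.3 of the Treg list, and the nearest conventional midpoint was 6560 bp away. Smad7 and Smad4 thus showed opposite patterns at a gene end, with a wide Treg-only peak at Smad7 and a wide conventional-only peak at Smad4. Whether either is a property of the cell type or of the library cannot be told apart with 1 library each.

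Ski and Skil encode related corepressors that bind Smad complexes and silence their targets, and Skil (SnoN) is degraded when the pathway is activated. Ski (chromosome 4, 155154075 to 155222535) had 1 Treg peak and 3 conventional peaks. The shared peak was 290 bp wide in the Treg list (155200720 to 155201009) and 562 bp in the conventional list (155200607 to 155201168), with midpoints 21671 and 21648 bp downstream of the start. The Treg peak lay wholly within the conventional one and covered 51.6% of it. The conventional-only peaks lay 834 bp upstream of the start (155223205 to 155223534, 330 bp) and 59918 bp downstream of it (155162476 to 155162759, 284 bp). Both were narrow, at width percentiles 19.6 and 2.1, and neither was among the 3402 widest conventional peaks, where 1 peak remained at Ski.

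Skil (chromosome 3, 31095058 to 31122923) had 1 Treg peak and 2 conventional peaks at the lower end of its span. The Treg peak (31094114 to 31095214) was 1101 bp wide, the widest Treg peak at the 10 genes and at width percentile 98.4 of its list. It overlapped both conventional peaks, by 108 bp (31093765 to 31094221, 457 bp) and by 642 bp (31094573 to 31095486, 914 bp). The conventional peaks were 351 bp apart. The first overlap was 23.6% of that conventional peak, with midpoints 671 bp apart, and the peak no longer counted as shared when an overlap of 50% of both peaks was required. Whether the higher conventional count at Skil reflects an additional site cannot be told from the positions.

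Smurf2 (chromosome 11, 106820061 to 106920747) encodes a HECT ubiquitin ligase that acts with Smad7 to degrade receptors and Smads. It had 1 shared peak just downstream of its start. The Treg peak (106920432 to 106920675) was 244 bp wide with its midpoint 162 bp downstream, and the conventional peak (106920415 to 106920753) was 339 bp wide with its midpoint 131 bp downstream. Both were narrow, at width percentiles 2.5 and 22.5. The conventional peak covered the whole Treg peak, and it was not among the 3402 widest of its list.

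A Treg peak lay within 1 kb of an end of its own gene at 4 of the 10 genes (Tgfb1, Smad7, Skil and Smurf2), against 6.41% of all protein-coding genes. A conventional peak did so at 5 of the 10 (Tgfb1, Smad4, Ski, Skil and Smurf2), against 9.78% of all. The genes with an end peak in both lists were Tgfb1, Skil and Smurf2. Counted by peak, 35.7% of the 14 Treg peaks lay within 1 kb of an end of any gene, coding or not, against 48.2% of all Treg peaks. For the 17 conventional peaks the share was 35.3%, against 54.3% of all conventional peaks. Of the 14 Treg peaks, 8 overlapped a conventional peak, or 57.1% (95% Clopper-Pearson interval 28.9% to 82.3%), and 56.9% of all Treg peaks did. Of the 17 conventional peaks, 9 overlapped a Treg peak, or 52.9% (27.8% to 77.0%), and 42.8% (41.3% to 44.3%) of all conventional peaks did. These intervals cover counting error only, and peaks at 1 gene share a locus.

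Pairs of shared peaks were defined by overlap, which by itself limits the distance between their midpoints. No share over all shared pairs is given here, so the pair counts below are descriptions only. In 7 of the 9 overlapping pairs the midpoints lay within 150 bp of each other, and both exceptions were at Skil, at 365 and 671 bp. The Treg peak was the narrower one in 6 pairs and the wider one in 3, of which 2 were at Skil and the other at Smad3. Shared peaks had a median width of 555 bp in the Treg list and 562 bp in the conventional list. Peaks of 1 list alone had a median of 338 bp for Treg and 354 bp for conventional. The same direction held over the whole lists, where shared peaks had a median of 408 bp and Treg-only peaks 321 bp, and shared conventional peaks 497 bp and conventional-only peaks 388 bp. The widest peaks of 1 list alone were the gene end peaks named above, at 844 bp for Treg at Smad7 and 1207 bp for conventional at Smad4.

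**Figure D3:**
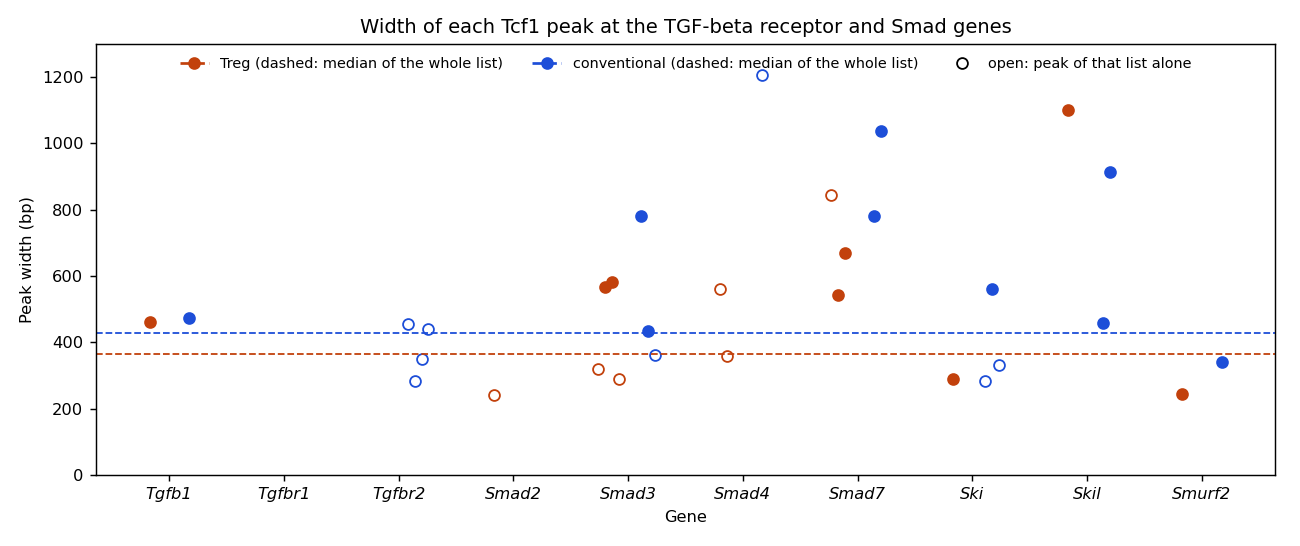
Width in bp of each Tcf1 peak (vertical axis) at each gene, with Treg peaks left of conventional peaks. Filled circles are shared peaks, open circles are peaks of that list alone, and dashed lines are the median widths of the whole lists, 366 bp for Treg and 428 bp for conventional. The widest peaks are the shared Treg peak at Skil (1101 bp) and the conventional-only peak at Smad4 (1207 bp).

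The rest of the pathway was examined in 5 lists with 75 genes. A Treg peak was assigned to 11 of them and a conventional peak to 23. All 11 genes with a Treg peak also had a conventional peak, so 12 genes had conventional peaks alone and 0 had Treg peaks alone. Over all protein-coding genes 12.3% had a Treg peak, 16.3% a conventional peak, 8.1% conventional peaks alone and 4.13% Treg peaks alone. These counts are descriptions and were not tested.

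Ligand and activation genes had 0 of 18 members with a Treg peak and 2 of 18 with a conventional peak. Those were Gdf11, a TGF-beta family ligand, with 1 peak 193 bp outside its span, and Nrros, which anchors latent TGF-beta on myeloid cells, with 1 peak 12240 bp outside. No peak was assigned to Lrrc32, which encodes the Treg surface protein GARP that holds latent TGF-beta, or to the integrin genes Itgav and Itgb8, whose products release the active cytokine. Receptor and coreceptor genes had 0 of 11 with a Treg peak and 3 of 11 with a conventional peak. Besides Tgfbr3 these were the activin receptor genes Acvr1b and Acvr2a, with 1 conventional-only peak each within 1 kb of a gene end. With Tgfbr1 and Tgfbr2, 0 of 13 receptor and coreceptor genes had a Treg peak and 4 had conventional peaks, beside 12.3% and 16.3% of all protein-coding genes, and with so few genes nothing is read from these counts.

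Other Smads, partners and inhibitors had 4 of 17 members with a Treg peak and 8 of 17 with a conventional peak. Trim33, a ubiquitin ligase that binds Smads, had 3 Treg peaks, all shared, and 4 conventional peaks, 3 of them shared. Ep300, a histone acetyltransferase that coactivates Smads, had 3 Treg and 2 conventional peaks, with 2 shared in each list. Ldlrad4, a membrane inhibitor of Smad phosphorylation, had 1 shared peak inside the gene, and Smad5, a Smad of the bone morphogenetic protein branch, had 1 unshared peak in each list. Crebbp, Tgif1, Tgif2 and Pmepa1 had 1 conventional-only peak each, the last 73140 bp outside the gene.

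Ubiquitin enzymes, phosphatases and kinases had 2 of 13 members with a Treg peak and 5 of 13 with a conventional peak. Tab1 and Tab2, which activate the TGF-beta activated kinase, had 1 Treg peak each, both shared, with 2 and 1 conventional peaks. Usp4 and Usp15, deubiquitinases that stabilise TGF-beta receptors, and Ppm1a, a Smad phosphatase, had 1 conventional-only peak each. No peak was assigned to Smurf1, the close relative of Smurf2.

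Genes that respond to TGF-beta in T cells were the list with equal counts, 5 of 16 in the Treg list and the same 5 in the conventional list. Socs3, a cytokine signalling inhibitor, had 2 Treg and 3 conventional peaks, with 2 shared in each list, and Runx3, a T cell transcription factor, had 2 Treg and 3 conventional peaks, with 1 shared in each. Il9, Cdkn1a and Myc had 1 shared peak each. For Il9 and Cdkn1a it lay outside the gene, at 2463 and 8943 bp in the Treg list and 2378 and 8831 bp in the conventional list. Itgae, which encodes the integrin chain CD103, had 0 peaks in both lists, as did Foxp3.

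**Figure D4:**
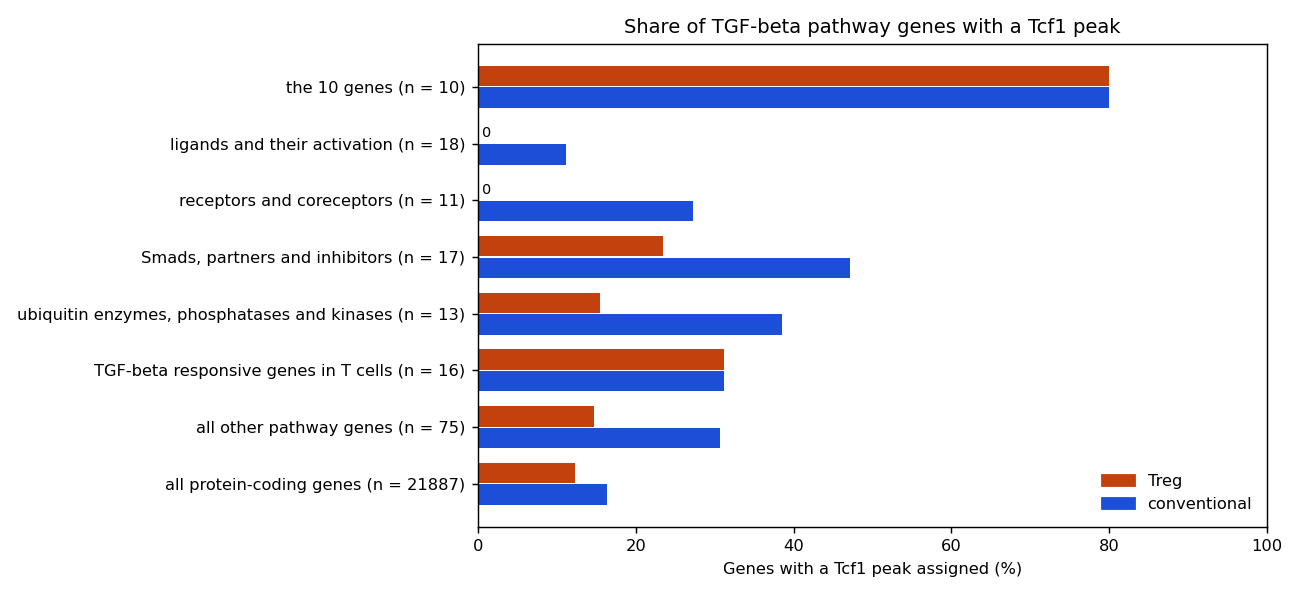
Share of genes with at least 1 Tcf1 peak assigned, in percent, for the 10 genes, the 5 lists of other pathway genes, those lists combined and all protein-coding genes, with Treg bars above conventional bars. Ligand and receptor lists have 0 genes with a Treg peak, and over all protein-coding genes the shares are 12.3% and 16.3%.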

How the data were processed

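Chromatin immunoprecipitation with sequencing (ChIP-seq) for Tcf1 covered 1 Treg and 1 conventional CD4 T cell library. The deposited peak lists hold 3 columns, with chromosome, start and end and no other value. Per the submitters' processing notes, FastQC, Bowtie2 2.3.4.1, MACS2 2.1.1 and the mm10 build were used. The authors call the lists filtered, and the filter and the control used in calling are not given in the sources used here. Libraries were amplified with 18 to 21 PCR cycles, per the labels' protocols.

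From the deposited positions, printed 1-based, peak midpoints were assigned to spans of a RefSeq table (GRCm38.p6) as described above, with Python 3.11.15, numpy 2.4.6, pandas 2.3.3, scipy 1.17.1 and matplotlib 3.10.9. Shared peaks overlap by at least 1 bp. Peaks of 1 list alone have no overlap and no midpoint of the other list within 1000 bp. Width percentiles are ranks within a list. The genes and lists were chosen with earlier results of these data known, so no list was tested. All 10 genes are named, and so are all other pathway genes with a peak, up to 8 a list. Genes with 0 peaks are named as examples chosen after their values were seen. Some listed genes are not reported by name here. The assignment and overlap steps were tested on simulated data.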

Additional observations from a re-analysis of the deposited data

How the results depend on the processing

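Of 34 values recomputed under 7 alternatives, 31 stayed within 1.5 times of those reported. The other 3 came from keeping the wider 50% of each list (1701 Treg and 2259 conventional peaks). There, 5 genes had a Treg peak instead of 8, with 8 Treg peaks in place of 14, and 11 conventional peaks remained in place of 17. Smad2, Ski and Smurf2 had no Treg peak in that part, and Smurf2 no conventional peak. Fewer peaks were kept by construction. Requiring an overlap of 50% of both peaks left 8 shared peaks in each list, against 8 Treg and 9 conventional, and merging peaks within 1000 bp left 7 in each. Peak width is not a measure of occupancy, and with no read counts weak binding below the calling threshold is not detectable.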

Other observations

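Some peaks within 100 kb of the 10 genes were assigned to a neighbouring gene, 14 in the Treg list and 16 in the conventional list. Around Smad7, 3 Treg and 4 conventional peaks fell to Dym and Ctif, and 2 of them in each list were shared. The shared ones lay 45001 and 82965 bp from Smad7 in the Treg list and 44941 and 82995 bp in the conventional list. Around Tgfb1, 3 Treg and 3 conventional peaks fell to its neighbours. A Treg-only peak 6157 bp from Tgfb1 fell to B9d2, and peaks of both lists fell to Ccdc97 and Hnrnpul1. Which gene a peak acts on was not tested.

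The other genes with at least 4 conventional peaks and 0 Treg peaks were Ccm2, Foxn3, Katnal1, Pced1b and Spata13, each with 4 conventional peaks. Their summed peak widths were 1772, 1797, 1562, 2326 and 2171 bp, against 1527 bp for Tgfbr2 and 1699 bp for Tgfbr3. The stretches of genome assigned to them were 63364, 537850, 216351, 238721 and 329662 bp in the same order. The median over all protein-coding genes was 45.8 kb. These genes were picked out with their values in view.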
